A study of Mus musculus with 54 samples.

Results

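The 7 genes described here act in the synthesis and transport of cholesterol in the mouse testis. They were chosen by name, with earlier results of these data known, and are 7 of the 23284 genes in each count table: Abca1, Apoe, Scarb1, Nr1h3, Srebf2, Sqle and Cyp51. RNA was sequenced from C57BL/6 mice of 4 genotypes at 3 months of age. These were wild type (WT), CTCF HET (Ctcf+/-, 1 of the 2 alleles of Ctcf removed), BORIS KO (Boris-/-, both alleles of Boris removed; its symbol in the tables is Ctcfl) and the compound mutant CM (Ctcf+/-Boris-/-, called DKO in the sample titles). No treatment is named, and the alleles were carried by all cells of the animal. The study asked how CTCF and BORIS act together in male germ cells. CTCF is a zinc finger protein that binds insulators and promoters in all tissues. BORIS is its testis-specific paralog with a similar DNA binding domain. Each genotype was represented by 3 RNA libraries of whole testis, 3 of purified round spermatids and 3 of purified spermatocytes, except that WT spermatocytes had 2. CTCF, BORIS, RNA polymerase II (Pol2) and H3K4me3 (a histone mark of active promoters) were mapped by ChIP-seq in germ cells of WT testes, and all but BORIS also in those of CM testes.

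Cells make cholesterol from acetyl-CoA through the mevalonate pathway. Squalene epoxidase (Sqle) adds oxygen to squalene at the first oxygen-dependent step, and lanosterol 14-alpha demethylase (Cyp51) acts on the first sterol that is formed. SREBP2, the product of Srebf2, is held in the endoplasmic reticulum when sterol is plentiful and is released by proteolysis when it is scarce, and it then activates the genes of synthesis and of sterol uptake. LXR alpha, the product of Nr1h3, is a nuclear receptor that binds oxysterols and activates genes of export such as Abca1 and Apoe. ABCA1 passes cholesterol from the cell to lipid-poor apolipoprotein, APOE carries lipid between cells, and SR-BI, the product of Scarb1, takes up cholesteryl ester from HDL. In the testis, Leydig cells use cholesterol for steroid synthesis, Sertoli cells take up and recycle the lipid of dying germ cells and residual bodies, and germ cells hold high levels of Cyp51 and form the meiosis-activating sterols that lie downstream of it.

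The whole testis libraries were not made from intact tissue. According to the study's methods, decapsulated testes were treated with collagenase, which removes much of the interstitium, then with trypsin, and were filtered, so these libraries stand for germ cell-enriched suspensions, each pooled from several mice. Somatic cells were still present, since all 7 Leydig cell markers and all 11 Sertoli cell markers in the table had counts in every whole testis library. Total counts ran from 10437683 to 42055813 in whole testis, from 47740650 to 98545423 in round spermatids and from 53337530 to 88946702 in spermatocytes. Levels are given as CPM, the counts of a gene per 1000000 counts of its library, after TMM scaling within a table, and the 2 tables (whole testis and purified cells) were scaled separately, and their libraries were also made differently (whole testis from rRNA-depleted RNA on Ion Proton, purified cells from poly(A) RNA on Illumina), so a level in one cannot be compared closely with a level in the other.

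The targeted genes were read first as a check of the labels. In whole testis the Ctcf level was 45.1, 40.9 and 42.1 CPM in the WT libraries, 27.7, 30.3 and 22.9 in CTCF HET, and 26.4, 26.8 and 24.3 in CM. Ctcfl stood at 0.509, 0.596 and 0.711 CPM in WT, while the level was 0.2003, 0.401 and 0.165 CPM in the BORIS KO libraries, and 0.194, 0.122 and 0.157 CPM in the CM libraries. A table of counts per gene does not tell whether the remaining reads lie outside the deleted part. In whole testis the groups of libraries therefore did not overlap in the direction of their labels. In purified cells this did not hold for Ctcf, whose level was 171, 45.5 and 38.4 CPM in the round spermatid libraries labelled CM against 48.0, 30.0 and 28.4 in WT, and 89.3, 34.8 and 36.4 in the spermatocyte libraries labelled CM against 36.0 and 33.6 in WT. For CTCF HET the Ctcf level was 33.1, 21.8 and 24.5 CPM in round spermatids, which overlapped WT, and 41.7, 49.5 and 29.9 CPM in spermatocytes, where 2 of the 3 libraries stood above both WT libraries. Ctcfl in round spermatids was 2.80 to 4.91 CPM in WT, 2.06 to 2.38 in BORIS KO and 1.07 to 2.54 CPM in the CM libraries. Its spermatocyte level was 0.0808 and 0.0667 CPM in WT, at most 0.0878 in BORIS KO, and 1.81 in CTCF HET library 2 and 0.397 in library 2 labelled CM, with 0 in the other libraries of these 2 groups. In spermatocytes Ctcfl was very low and overlapped between WT and BORIS KO, so it could not check the BORIS KO label there. For their Ctcf levels, the purified libraries of CM and CTCF HET are called the libraries labelled CM and labelled CTCF HET below. Directions drawn from them rest on labels that Ctcf did not bear out. Some also held few genes with low counts: 416 to 1315 genes had 1 to 10 counts in the round spermatid libraries labelled CM, against 2063 to 3270 in WT. In spermatocytes the numbers were 389 to 2239 in the libraries labelled CM and 183 to 705 in those labelled CTCF HET, against 3916 to 3936 in WT.

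The genes differed in level among themselves. Per kilobase of exon, WT whole testis held 35.7 ± 6.93 CPM per kb of Apoe (SD, n = 3) and 32.2 ± 2.79 of Sqle, followed by 21.9 ± 4.58 of Cyp51, 16.2 ± 6.84 of Abca1, 12.6 ± 1.07 of Scarb1, 9.12 ± 1.97 of Nr1h3 and 5.58 ± 0.139 of Srebf2. In this order of levels per kilobase, the libraries of Apoe and Sqle overlapped, as did those of Cyp51 and Abca1 and those of Abca1 and Scarb1, and the other neighbours did not.

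In CM whole testis, the gene of cholesterol export and the gene of the lipid carrier rose, Abca1 by 6.80-fold and Apoe by 3.92-fold. These were 2 of the 7 genes called at an adjusted p under 0.05 (edgeR quasi-likelihood test with Benjamini-Hochberg adjustment over all 16378 genes tested), where 25.2% of all genes were called, 16.4% higher and 8.8% lower. None of the 7 was called lower. Sqle and Nr1h3 were lower in every CM library than in any WT library and Srebf2 was higher in every one, and these 3 did not pass this test but passed with the replicate number as a block, with DESeq2 and with all 4 genotypes in 1 fit. Scarb1 and Cyp51 overlapped between the genotypes. The share of all genes whose libraries separate in this way is not given, here or for the other comparisons. Such separation therefore has no background to be read against.

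The Abca1 level in whole testis was 222, 195 and 88.0 CPM in the WT libraries and 1797, 457 and 1224 CPM in the CM libraries. The lowest CM library stood above the highest WT library, and the CM libraries spread widely among themselves. The log2 fold change was 2.77 (SE 0.53; edgeR adjusted p = 0.0161).

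The Apoe level was 86.3, 65.7 and 60.3 CPM in WT whole testis and 217, 175 and 451 CPM in CM. The groups did not overlap, and the highest CM library was not the one that was highest for Abca1. The log2 fold change was 1.97 (SE 0.37; edgeR adjusted p = 0.016). Without WT library 2, WT library 3 or CM library 3, neither Abca1 nor Apoe passed the threshold, with adjusted p from 0.0572 to 0.0677, although both stayed higher in CM.

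Scarb1, the HDL receptor, stood at 86.5, 79.0 and 73.1 CPM in WT and at 161, 65.6 and 95.3 CPM in CM. CM library 2 lay below all WT libraries and the other CM libraries above them. The log2 fold change of 0.42 (SE 0.32; edgeR adjusted p = 0.346) did not pass the test.

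For Nr1h3, the oxysterol receptor, the WT libraries held 28.6, 19.5 and 20.7 CPM and the CM libraries 14.8, 15.6 and 12.04 CPM. All CM libraries were below all WT libraries, while Abca1 and Apoe, targets of this receptor, were above. The log2 fold change was -0.71 (SE 0.26; edgeR adjusted p = 0.0703, and 0.0302 with the block).

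Srebf2 stood at 28.5, 27.1 and 27.9 CPM in WT and at 87.7, 33.5 and 44.4 CPM in CM. The WT libraries lay within a narrow band, and CM library 1 stood far above the other CM libraries, as it did for Scarb1. The log2 fold change was 0.97 (SE 0.34; edgeR adjusted p = 0.0668, and 0.0184 with the block).

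Sqle stood at 197, 171 and 169 CPM in WT and at 135, 113 and 101 CPM in CM, with no overlap. The log2 fold change was -0.64 (SE 0.22; edgeR adjusted p = 0.0624, and 0.0292 with the block). Cyp51, a later step of the same pathway, stood at 82.0, 117 and 83.4 CPM in WT and at 68.0, 119 and 133 CPM in CM. Its CM libraries enclosed the WT libraries, and the log2 fold change was 0.17 (SE 0.30; edgeR adjusted p = 0.697).

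With the block, which the whole testis libraries support (same-numbered libraries of different genotypes deviated together), 5 of the 7 genes were called, and so were 43% of all genes. DESeq2 called the same number, with 33.1% of all genes. Scaling by total counts instead of TMM (a comparison added after the data were seen) moved the median of all genes by 0.43 on the log2 scale, and the share of calls that were higher from 65.1% to 91.2%. Relative to total counts the fold changes of all 7 genes kept their sign, with log2 ratios of 3.23 for Abca1, 2.42 for Apoe, 1.42 for Srebf2, 0.86 for Scarb1, 0.59 for Cyp51, -0.20 for Sqle and -0.28 for Nr1h3, so that the lower levels of Sqle and Nr1h3 were smaller than the shift of the median itself.

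**Figure D1:**
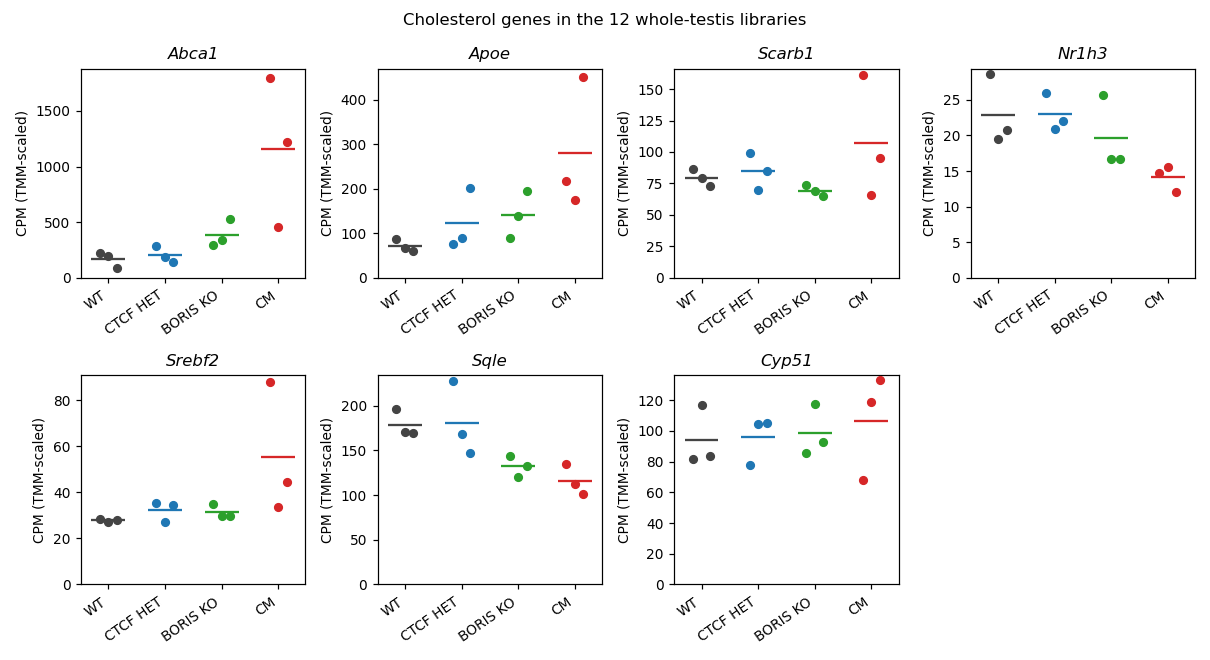
Levels of the 7 genes in whole testis, in CPM on a linear axis from 0, by genotype; each point is 1 of 3 libraries and the line is the group mean. Abca1 in CM sits at 457 to 1797 CPM, above all WT libraries at 88.0 to 222, and the Cyp51 libraries of all genotypes overlap.

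The other genes of the pathway moved unevenly along it. Of the cholesterol synthesis list, 11 of the 20 genes tested rose in CM whole testis and none fell. Among all genes tested, 16.4% were called higher and 8.8% lower. The median log2 fold change of the list was 1.16 against 0.003 for all genes tested. Among those with the lowest adjusted p, Dhcr7, the last reductase, rose by 2.09 on the log2 scale, Hsd17b7 by 2.03, Sc4mol (the sterol C4 demethylase now called Msmo1) by 2.40, Sc5d by 1.72, Ebp by 2.09, Acat2, of the first step, by 1.55 and Nsdhl by 1.47, with edgeR adjusted p from 0.0151 to 0.0166. Sqle and Cyp51 were among the 9 that did not pass. The neighbours of Sqle in the pathway stood at -0.54 for Fdft1, which forms squalene and was not called, and at 1.15 for Lss, which closes the ring and rose.

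**Figure D2:**
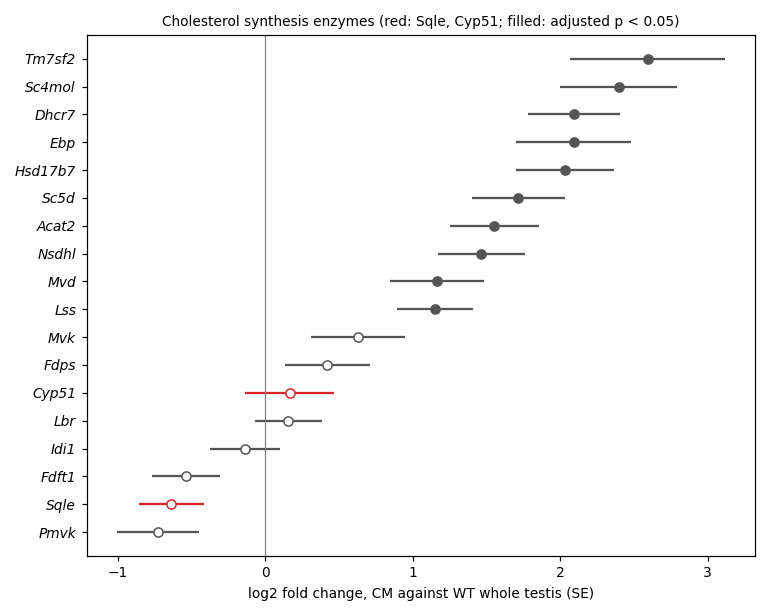
Log2 fold change of CM against WT in whole testis for 18 tested genes of the cholesterol synthesis list, sorted by size; points are the edgeR estimate, lines ± 1 SE, filled points passed an adjusted p under 0.05, and Sqle and Cyp51 are in red. The 10 filled points lie between 1.15 and 2.59, while Sqle, Cyp51 and Fdft1 lie between -0.64 and 0.17.

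The counts of the next 3 lists also stand beside 16.4% of all genes called higher and 8.8% lower. Of the SREBP control list, 3 of 7 genes tested rose and none fell (median log2 fold change 0.89). These were Scap, the escort of SREBP, by 1.97, the protease gene Mbtps1 by 0.89 and Srebf1 by 1.44 (edgeR adjusted p from 0.0188 to 0.0403). Insig1, which retains the complex, had a log2 fold change of 0.59 and was not called. Of the list of LXR receptors, partners and targets, 7 of 13 rose and 2 fell (median 1.44). Those that rose included Apoc1, the neighbour of Apoe, at 4.17, Abca1 at 2.77, Apoe at 1.97, Mylip at 1.93 and Abcg1, a second exporter, at 1.71, whereas Rxrg, a partner, fell by 1.53 and Lpcat3, also a target, by 0.79 on the log2 scale. Neither receptor passed, with 0.00 for Nr1h2 and -0.71 for Nr1h3. Of the list of uptake, storage and export, 13 of 19 rose and none fell (median 1.76). They included Lrp1, a receptor of lipoproteins, at 2.05, Npc1 at 1.87, which moves cholesterol out of the lysosome, Cd36 at 2.55, Soat1 at 1.49, which esterifies cholesterol, and Stard4 at 1.72. These calls were lost with the same libraries as those of Abca1 and Apoe: without WT library 2, WT library 3 or CM library 3, no gene of the 4 lists was called. The share of all genes called in those fits is not given here, and whether the loss is particular to these lists was not tested.

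Markers of several other cell types also moved in CM whole testis, where 16.4% of all genes were called higher and 8.8% lower. The summed level of the 7 Leydig cell markers ran from 380 to 610 CPM in WT and from 1874 to 3815 CPM in CM, and 5 of the 7 rose. The sum of the Sertoli cell markers ran from 305 to 489 CPM in WT and from 760 to 1578 CPM in CM, and 6 of 11 rose. Of 10 macrophage markers 9 rose, while their sums overlapped, at 520 to 688 CPM in WT and 559 to 757 CPM in CM. Of 5 peritubular myoid markers 1 rose, with sums of 11.9 to 15.7 CPM in WT and 15.9 to 35.3 CPM in CM. Of 5 endothelial markers 1 rose and 1 fell. Their sums overlapped, at 35.5 to 58.0 CPM in WT and 31.0 to 48.8 CPM in CM. The sum of 9 spermatocyte markers was 2369 to 2552 CPM in WT and 901 to 1681 in CM, but 2 of the 9 fell and 7 were not called, with a median log2 fold change of -0.10. That of 7 round spermatid markers was 1974 to 2046 CPM in WT and 669 to 1180 in CM, and 4 of the 7 fell. The sum of 6 elongating spermatid markers was 17340 to 26587 CPM in WT and 4420 to 13801 in CM, and 3 fell. The sum of 6 spermatogonia markers was 47.6 to 63.9 CPM in WT and 112 to 398 in CM, and 2 rose. In such bulk libraries fewer cells of a type and less RNA per cell cannot be told apart. The part of these cell types in the levels of Abca1, Apoe and the pathway genes was not tested. Star, the cholesterol carrier of steroid synthesis, is on both the uptake list and the Leydig cell list. Abca1, Abcg1 and Apoe are on both the LXR list and the uptake list, and Srebf1 is on both the SREBP and the LXR lists. The counts of these lists therefore share genes.

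In BORIS KO whole testis none of the 7 genes was called by edgeR, where 0.0551% of all genes were called. Abca1 stood at 292, 340 and 527 CPM, above all WT libraries, with a log2 fold change of 1.23 (SE 0.35; edgeR adjusted p = 0.214). Apoe, at 89.9, 140 and 194 CPM, was also above all WT libraries, with a log2 fold change of 1.02 (SE 0.29; edgeR adjusted p = 0.213). Srebf2 was slightly above them, at 35.1, 29.8 and 29.9 CPM. Sqle, at 144, 121 and 133 CPM, was below all of them, with -0.42 on the log2 scale (edgeR adjusted p = 0.235). Abca1, Apoe and Sqle had an unadjusted p under 0.05, DESeq2 called 1 of the 7 (Abca1, adjusted p = 0.0428) where it called 2.36% of all genes, and the fit with the block called 1 (Sqle, edgeR adjusted p = 0.0485) where it called 6.59%. The sum of the Leydig cell markers ran from 723 to 1505 CPM in BORIS KO, above the WT range. The sums of the Sertoli cell markers, at 534 to 689 CPM, and of the spermatogonia markers, at 83.5 to 114 CPM, were also above their WT ranges, and none of the markers of these 3 lists was called. Their part in the Abca1 and Apoe levels was not tested.

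In CTCF HET whole testis none of the 7 genes was called (0.00621% of all genes were), none had an unadjusted p under 0.05, and DESeq2 called none (and 0.0187% of all genes). The libraries of CTCF HET and WT overlapped for every one of the 7. Abca1 stood at 281, 181 and 138 CPM and Apoe at 74.8, 88.5 and 202 CPM in CTCF HET, the last of these above all WT libraries.

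Between the compound mutant and BORIS KO, which differ in 1 allele of Ctcf, none of the 7 was called by edgeR, with 0.006% of all genes called. Abca1 was higher in CM by 1.54 on the log2 scale (SE 0.47; edgeR adjusted p = 0.148, and 0.0198 with DESeq2, which called this 1 gene of the 7 and 7.22% of all genes). Its CM library 2, at 457 CPM, lay below BORIS KO library 3, at 527 CPM. Apoe was higher by 0.95 (SE 0.41; edgeR adjusted p = 0.224), and these 2 genes had an unadjusted p under 0.05. Whether CM departs from the sum of the single mutants was tested with all 4 genotypes in 1 fit. No gene of the table was called in this test (0%), and DESeq2 called none of the 7 and 0.221% of all genes. The departure was 1.33 (SE 0.66; edgeR adjusted p = 0.513) for Abca1 and 0.21 (SE 0.60; edgeR adjusted p = 0.92) for Apoe on the log2 scale, and 0 of the 7 had an unadjusted p under 0.05.

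In purified WT cells Abca1, Cyp51 and Sqle were higher in round spermatids than in spermatocytes and the other 4 genes were not called, where 70% of all genes were called. Cyp51 stood at 71.1, 78.8 and 86.3 CPM in round spermatids and at 9.02 and 8.30 CPM in spermatocytes, a log2 difference of 3.28 (SE 0.15; edgeR adjusted p = 1.38e-06). Sqle, at 149, 141 and 148 against 39.8 and 41.7 CPM, differed by 1.94 (SE 0.098; edgeR adjusted p = 2.15e-06). Both enzymes thus rose together between the stages in WT cells. Abca1 differed by 4.04 (SE 0.36; edgeR adjusted p = 3.87e-05), but from a low level, 2.15, 2.22 and 1.89 CPM in round spermatids and 0.162 and 0.107 in spermatocytes. Of the synthesis list 7 of 21 genes tested were higher in round spermatids and 9 lower, among them Lbr, with a log2 difference of -3.36. Leydig cell markers were low in these preparations, with sums of 1.12 to 1.31 CPM in WT round spermatids, where 2 to 3 of the 7 markers had a count, and of 9.66 to 10.4 CPM in WT spermatocytes, where 4 to 5 did. The 9 spermatocyte markers summed to 3909 to 4957 CPM in WT spermatocytes and to 1841 to 2230 in WT round spermatids, and the 7 round spermatid markers to 359 to 388 and 1500 to 1542 CPM. All 7 round spermatid markers were called higher in round spermatids, while of the 9 spermatocyte markers 4 were lower there, 3 higher and 2 not called (median log2 difference -0.19), so the sum of that list rests on some of its genes.

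**Figure D3:**
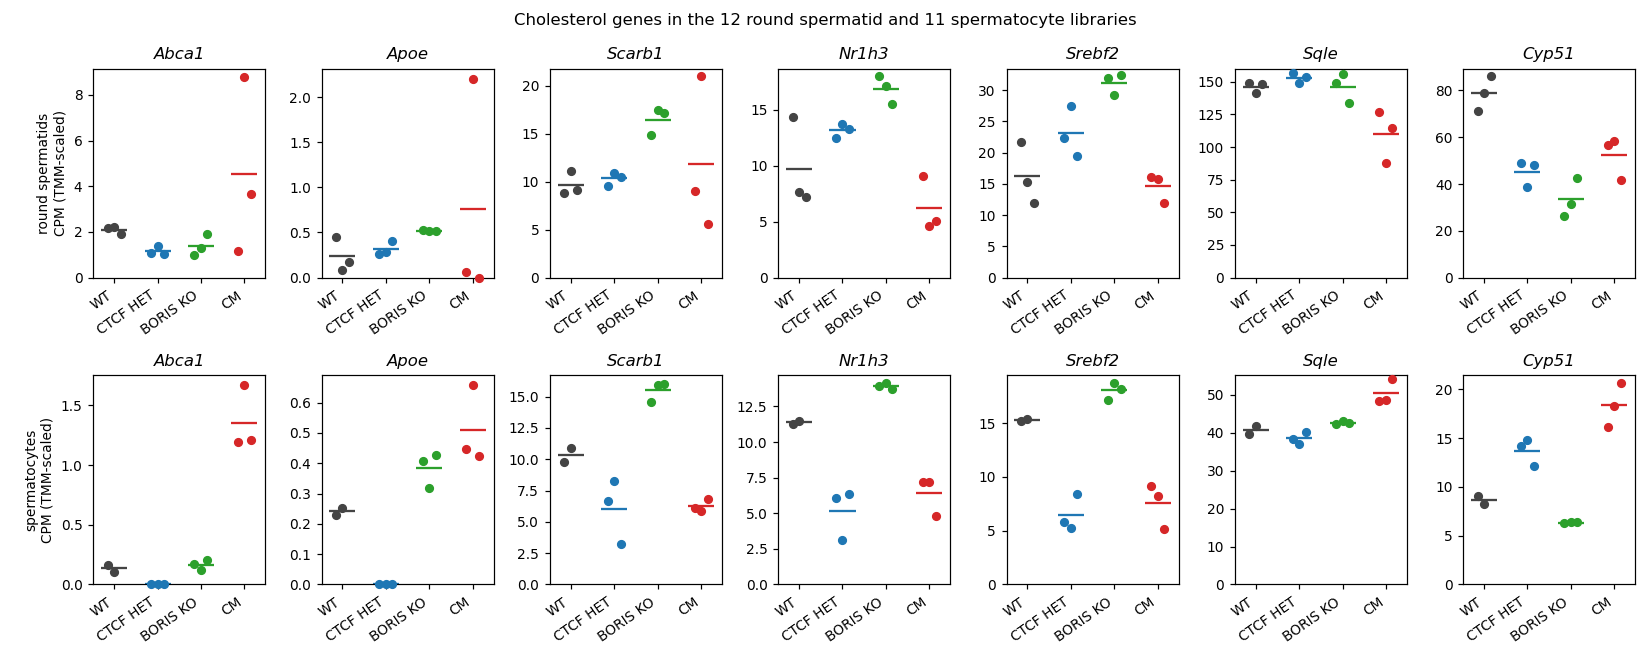
Levels of the 7 genes in purified round spermatids (upper row) and spermatocytes (lower row), in CPM on linear axes from 0 that differ between panels, by genotype; each point is 1 library and the line is the group mean. Cyp51 sits at 71.1 to 86.3 CPM in WT round spermatids and at 8.30 to 9.02 in WT spermatocytes, and Abca1 and Apoe are listed at 0 in spermatocytes labelled CTCF HET.

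The level of Abca1 and Apoe in purified germ cells was far under that in whole testis, across tables that were scaled separately and come from libraries of different RNA selection and sequencing platform. Apoe stood at 0.455, 0.0821 and 0.169 CPM in WT round spermatids and at 0.229 and 0.253 CPM in WT spermatocytes, against 60.3 to 86.3 CPM in WT whole testis. Scarb1, at 8.78 to 11.1 CPM in WT round spermatids and 9.82 and 10.9 in WT spermatocytes, also overlapped, and the levels of Srebf2 and Nr1h3 overlapped between the cell types.

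In BORIS KO round spermatids Cyp51 fell, and Scarb1, Srebf2 and Nr1h3 rose. These were 4 of the 7 genes, where 55.8% of all genes were called, so that their number is close to the background. Cyp51 stood at 26.2, 31.6 and 42.4 CPM in BORIS KO, below all WT libraries (log2 fold change -1.28, SE 0.17; edgeR adjusted p = 0.000286). Srebf2, at 32.0, 29.2 and 32.4 CPM against 21.8, 15.2 and 11.97 in WT, was above all WT libraries (0.89, SE 0.19; edgeR adjusted p = 0.00331). The regulator rose while this enzyme of the pathway fell. Scarb1 stood at 14.8, 17.4 and 17.2 CPM against 8.78, 11.1 and 9.12 (0.73, SE 0.15; edgeR adjusted p = 0.0027). Nr1h3 stood at 18.0, 17.1 and 15.5 CPM against 14.3, 7.66 and 7.18 (0.75, SE 0.24; edgeR adjusted p = 0.0237), a call that was lost without WT library 2 or 3 or BORIS KO library 1 or 2. Abca1, with -0.62, was not called (edgeR adjusted p = 0.0855). The list counts that follow stand beside 55.8% of all genes called, and 48.1% of all calls were higher. In the pathway lists the directions were mixed for synthesis, with 6 of 21 higher and 5 lower, among them Lss at 0.95 and Fdft1 at -0.53, and one-sided for the LXR list, with 6 of 12 higher and none lower, led by Nr1h2 at 1.68 and Rxrb at 1.31. Stage markers moved as well: of the round spermatid markers 4 of 7 fell and 1 rose (sums of 1245 to 1312 CPM against 1500 to 1542 in WT), and of the spermatocyte markers 5 of 9 fell and 1 rose (1065 to 1153 against 1841 to 2230 CPM). Their part in the level of Cyp51, a gene that differed between the stages in WT, was not tested.

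In BORIS KO spermatocytes the same 4 genes were called in the same directions, where 57.2% of all genes were called, with log2 fold changes nearer 0. Scarb1 stood at 14.6, 15.9 and 16.1 CPM against 9.82 and 10.9 in WT (log2 fold change 0.58, SE 0.088; edgeR adjusted p = 0.000128). Cyp51, at 6.25, 6.37 and 6.41 CPM against 9.02 and 8.30, fell by 0.45 on the log2 scale (SE 0.094; edgeR adjusted p = 0.00132). Both calls held without each library in turn in both cell types. Nr1h3 differed by 0.29 (SE 0.078; edgeR adjusted p = 0.00705), from 11.3 and 11.5 CPM in WT to 13.7 to 14.1. Srebf2 differed by 0.24 (SE 0.075; edgeR adjusted p = 0.0173), from 15.2 and 15.4 CPM to 17.2 to 18.8. The Nr1h3 call was lost without WT library 1 (edgeR adjusted p = 0.0507), and the Srebf2 call without either WT library or without BORIS KO library 2 or 3 (0.0502 to 0.0898). With all 4 genotypes of spermatocytes in 1 fit none of the 4 was called. With total-count scaling the median of all genes moved to 0.32 in BORIS KO round spermatids and to 0.24 in BORIS KO spermatocytes, and the share of calls that were higher from 48.1% to 68.4% and from 50.9% to 71.6%, while all 4 genes kept their direction. Of the LXR list 6 of 13 genes rose and none fell, again led by Nr1h2, at 1.00, and Rxrb, at 0.95, and of the synthesis list 5 of 20 rose and 5 fell. Of the round spermatid markers 2 of 7 rose and none fell (sums of 330 to 393 CPM against 359 to 388 in WT), and of the spermatocyte markers 5 of 9 fell and 1 rose (2360 to 2531 against 3909 to 4957 CPM).

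In round spermatids labelled CTCF HET Cyp51 fell and Abca1 fell, 2 of the 7 genes, where 22.3% of all genes were called. Cyp51 stood at 48.8, 38.6 and 48.2 CPM, below all WT libraries (log2 fold change -0.83, SE 0.13; edgeR adjusted p = 0.00543). Abca1 stood at 1.08, 1.38 and 1.04 CPM, also below all of them (-0.86, SE 0.23; edgeR adjusted p = 0.028). The Abca1 call was lost without WT library 2 or 3 or CTCF HET library 1 or 3, and in the edgeR fit of all 4 genotypes, with an adjusted p of 0.463. Both genes were higher in round spermatids than in spermatocytes in WT, and stage markers fell with them: 5 of 7 round spermatid markers (sums of 1193 to 1214 CPM against 1500 to 1542 in WT) and 4 of 6 elongating spermatid markers (793 to 869 against 1168 to 1319 CPM). Of the 9 spermatocyte markers 2 fell and 1 rose (1371 to 1793 against 1841 to 2230 CPM). Their part in the 2 calls was not tested.

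In spermatocytes labelled CTCF HET 1 of the 7 genes was called, where 15.5% of all genes were. Srebf2 fell, from 15.2 and 15.4 CPM in WT to 5.79, 5.28 and 8.45 (log2 fold change -1.12, SE 0.27; edgeR adjusted p = 0.0329). The call was lost without either WT library or without CTCF HET library 1 or 2 (edgeR adjusted p from 0.0912 to 0.262). Cyp51, at 14.2, 14.8 and 12.1 CPM against 9.02 and 8.30, lay above both WT libraries (0.78, SE 0.22; edgeR adjusted p = 0.0534), while in round spermatids it was below. Of the round spermatid markers 3 of 7 rose here and none fell (median log2 fold change 1.71), although their sums, 288 to 364 CPM, overlapped those of WT, 359 to 388, and of the spermatocyte markers 3 of 9 rose and none fell. Nr1h3, at 6.08, 3.10 and 6.35 CPM against 11.3 and 11.5, had a log2 fold change of -1.02 (SE 0.35; edgeR adjusted p = 0.0984). Abca1 and Apoe were listed at 0 in all 3 spermatocyte libraries labelled CTCF HET. Those libraries listed 12018 to 13406 genes with a count, against 17631 to 17683 in WT, so no fold is given for a gene listed at 0, and the part of this in the other values was not tested.

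In the libraries labelled CM no gene of the 7 passed the edgeR test in either cell type. In round spermatids 0.00654% of all genes were called, 1 of the 7 (Cyp51) had an unadjusted p under 0.05, and DESeq2 called none of the 7 and 12% of all genes. Cyp51 stood at 56.7, 58.3 and 41.7 CPM, below all WT libraries (log2 fold change -0.54, SE 0.21; edgeR adjusted p = 0.205). Abca1 stood at 1.14, 8.76 and 3.68 CPM (1.20, SE 0.70; edgeR adjusted p = 0.375), Apoe at 0.0622, 2.21 and 0 CPM, and Scarb1 at 9.03, 21.045 and 5.61 CPM. Library 2 was the highest for these 3 genes. Without it the fold change of Abca1 was 0.22, that of Apoe -2.83 and that of Scarb1 -0.40 on the log2 scale, against 1.20, 1.79 (SE 1.83; edgeR adjusted p = 0.646) and 0.37 with it. The sums of the round spermatid markers, 727 to 1037 CPM, lay below WT, at 1500 to 1542, with a median log2 fold change of -0.98 and none of the 7 called, and those of the spermatocyte markers, 2059 to 2971 CPM, overlapped WT, at 1841 to 2230.

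In spermatocytes labelled CM 0.604% of all genes were called by edgeR and 22.1% by DESeq2, which called 5 of the 7. An unadjusted p under 0.05 was given to 6 of the 7. The CM libraries did not overlap with the WT pair for any of the 7, with 4 genes higher and 3 lower. The share of all genes that separated in this way is not given here, so this number has no background to be read against. Abca1 stood at 1.19, 1.67 and 1.21 CPM against 0.162 and 0.107 (log2 fold change 3.32, SE 0.56; edgeR adjusted p = 0.0564). Cyp51 stood at 16.1, 18.3 and 20.7 CPM against 9.02 and 8.30 (1.07, SE 0.18; edgeR adjusted p = 0.0562). Sqle lay slightly above WT, at 48.3, 48.6 and 54.2 CPM (0.30; edgeR adjusted p = 0.147). Both enzymes were thus above WT in these spermatocytes, and the transport and regulatory genes other than Abca1 and Apoe were below. Srebf2 stood at 9.15, 8.26 and 5.20 CPM (-1.02; edgeR adjusted p = 0.0827), Scarb1 at 6.11, 5.84 and 6.86 CPM (-0.74; edgeR adjusted p = 0.0772) and Nr1h3 at 7.23, 7.21 and 4.80 CPM (-0.83; edgeR adjusted p = 0.0996). Without library 1, whose Ctcf level was 89.3 CPM, 6 of the 7 genes were called. The share of all genes called in that fit is not given here, so this number is not a result about the 7 genes. The median log2 fold change of the round spermatid markers was 1.63, with none of the 7 called, while their sums, 254 to 311 CPM, lay below WT, at 359 to 388. The sums of the spermatocyte markers, 5301 to 8824 CPM, lay above WT, at 3909 to 4957, also with none called.

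The difference between the 2 cell types in the effect of CM was tested in 1 fit, in which 3.51% of all genes were called. Of these calls 2.17% were higher and the rest lower, the direction of Cyp51. Cyp51 was the 1 gene of the 7 that passed, with a difference of -1.69 on the log2 scale (SE 0.29; edgeR adjusted p = 0.0173), being below WT in round spermatids and above WT in spermatocytes. In the same fit 5 of 7 round spermatid markers and 2 of 6 elongating spermatid markers were called lower (median differences -2.76 and -1.92), and their part in the value for Cyp51 was not tested. The adjusted p of Cyp51 was 0.0568 to 0.175 without WT library 2 or 3 of round spermatids or either WT library of spermatocytes. The values for Abca1 and Sqle were -2.22 (SE 0.97; edgeR adjusted p = 0.3) and -0.73 (SE 0.25; edgeR adjusted p = 0.16).

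**Figure D4:**
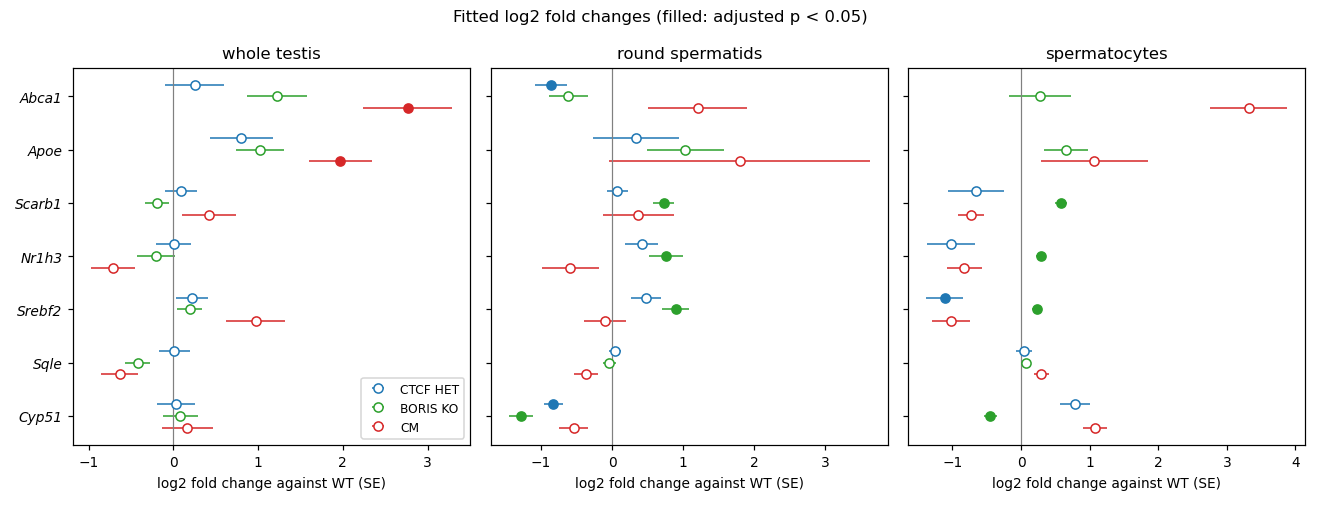
Log2 fold change against WT (edgeR estimate ± SE) of the 7 genes for each mutant in whole testis, round spermatids and spermatocytes, with 1 colour per mutant; filled points passed an adjusted p under 0.05. Abca1 and Apoe are called in CM whole testis at 2.77 and 1.97. Cyp51 is called lower in 3 of the 4 comparisons of single mutants in purified cells, where 22.3%, 55.8% and 57.2% of all genes were called. In the other, spermatocytes labelled CTCF HET, it lies at 0.78 and is not called. Genes listed at 0 in spermatocytes labelled CTCF HET are not shown.

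The ChIP-seq lists were read at each gene, from 2 kb before its start to 2 kb past its end in mm9 coordinates. Each list stands for 1 antibody and genotype without replicate error, so its values are descriptions. The genes lie at chr4:53043659-53172767 (Abca1, minus strand), chr7:20281458-20284515 (Apoe, minus), chr5:125757457-125821464 (Scarb1, minus), chr2:91024218-91042991 (Nr1h3, minus), chr15:81977696-82035806 (Srebf2, plus), chr15:59146632-59162747 (Sqle, plus) and chr5:4081145-4104746 (Cyp51, minus). All 7 had a WT CTCF peak (48.9% of 22380 protein-coding genes did), and 5 had one in CM (32.5%). Only 1 had a BORIS peak (21.5%), which was Abca1. Pol2 peaks were at 5 genes in WT (46%) and at all 7 in CM (52.7%), and H3K4me3 peaks at all 7 in WT (60.3%) and at 6 in CM (60.1%).

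Abca1 was bound by CTCF at 4 places in WT. The highest was inside the first intron, 1073 bases from the start, at chr4:53171442-53172044, with a height of 2720, above 91.2% of the list. The only BORIS peak at the 7 genes lay under it, at chr4:53171524-53171683, with a height of 51, above 22.3% of the BORIS list. In CM a CTCF peak remained there, at chr4:53171507-53171827, with a height of 188, above 25.1% of the CM list. Heights are not on 1 scale, since they run to 4391 in the WT list and to 968 in the CM list, so places within a list are given. The peak over the start itself, at chr4:53172468-53173139, was in the WT list and not in the CM list.

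Pol2 and the RNA of Abca1 were higher in the same genotype. The WT list held no Pol2 peak at this gene and the CM list held 15, spread over the whole gene body. The highest, at chr4:53169942-53173203, covered the start, with a score of 808, above 90.4% of the list. The WT H3K4me3 peak, at chr4:53171063-53171866, lay in an intron and did not reach the start. Its score was 50.6, just over the lowest score listed, 50. The CM peak, at chr4:53171216-53173178, overlapped it and also covered the start, with a score of 290, above 62.4% of the CM list. Of all 22380 genes, 2008 (8.97%) had no Pol2 peak in WT and at least 1 in CM, and Abca1 was the 1 gene with none in WT and 15 or more in CM, a feature singled out after its values were seen. Abca1 is a long gene, which offers more places for peaks.

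At the other transport genes, Apoe had a Pol2 peak at its start in CM, with a score of 59.3, and none in WT, and its weak H3K4me3 peak, with a score of 62.3, was listed in WT only. At Scarb1, WT Pol2 was absent from the start of the gene and lay inside it, with peaks 37442 and 28793 bases from the 5' end, the first with a score of 463 beside an H3K4me3 peak of 529. In CM a Pol2 peak at the start appeared, with a score of 363, and the first of the inner peaks remained, with a score of 229. At Nr1h3 the WT Pol2 peak lay past its 3' end, at the start of Madd, and in CM there was also a weak one, with a score of 58.1, at the 5' end of Nr1h3, which lies beside the start of Acp2, so neither can be assigned to Nr1h3 alone.

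The enzymes of synthesis carried Pol2 at their starts in both genotypes. The scores were 1087 in WT and 1048 in CM at Sqle, above 92.1% and 93.3% of the lists, and 1244 and 748 at Cyp51, above 93.6% and 89.4%. At Srebf2 they were 451 in WT and 1316 in CM, above 78.8% and 95.4%. Peaks at the 3' ends of Sqle and Cyp51 lie beside the ends of E430025E21Rik and Akap9, and cannot be assigned to 1 gene.

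**Figure D5:**
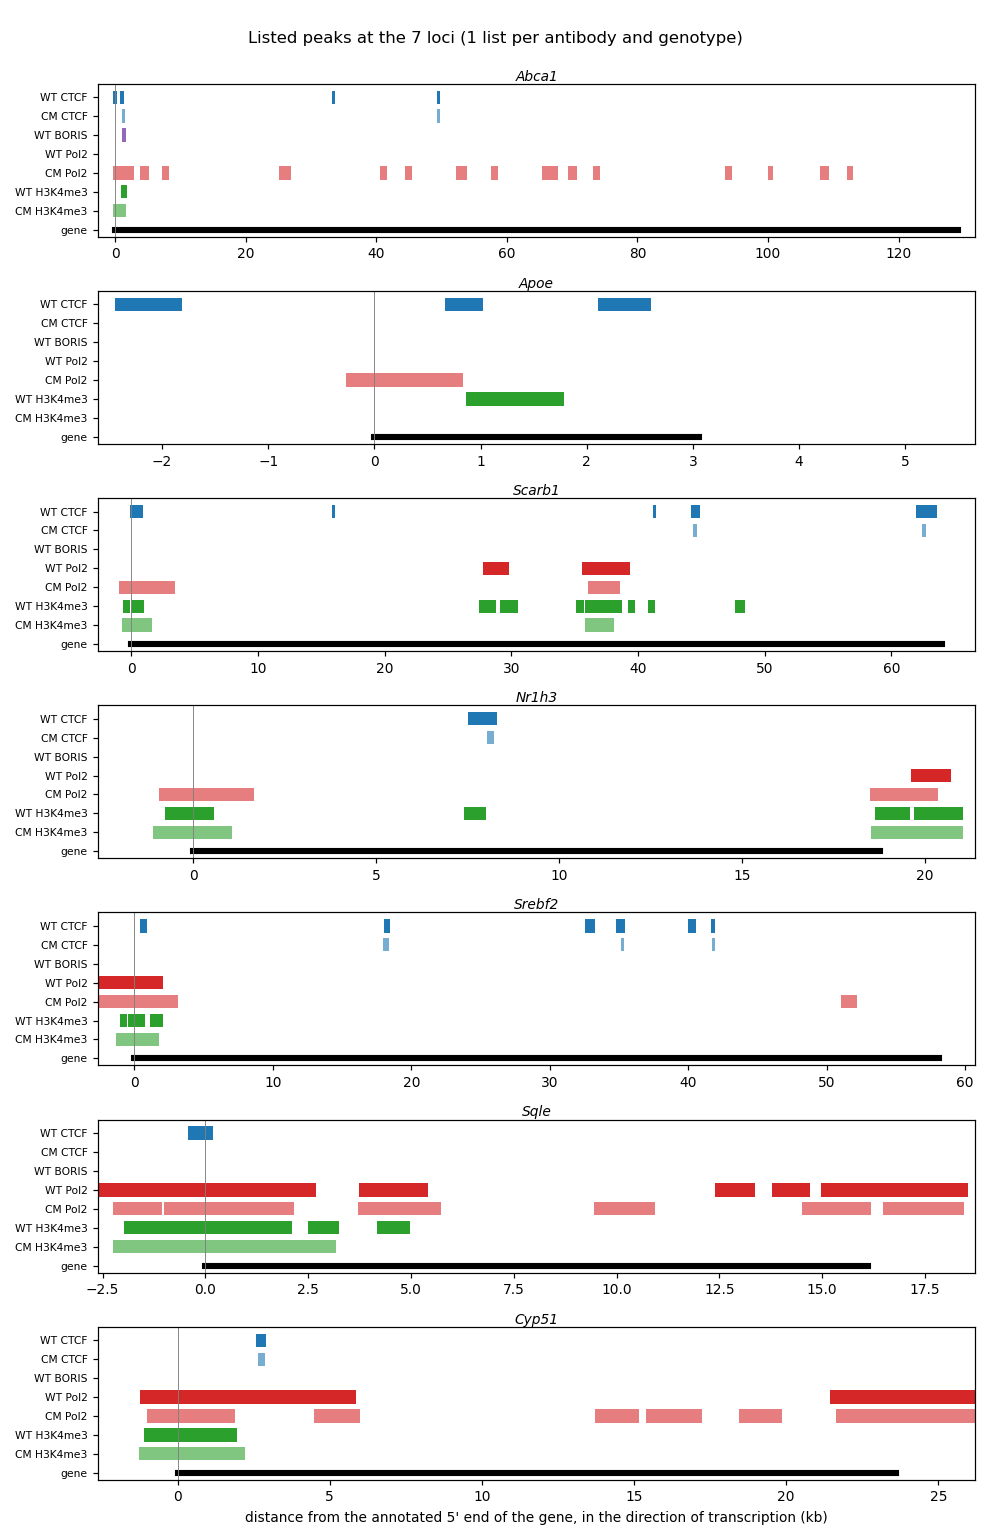
Deposited peaks along the 7 genes, by distance from the gene's 5' end in kb, with 1 row per antibody and genotype; the black bar is the gene and each coloured bar is 1 peak, and some Pol2 bars at Srebf2, Sqle and Cyp51 are cut at the edge of the window. The CM Pol2 row of Abca1 holds 15 peaks and its WT row none.

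Of the 21 WT CTCF peaks at the 7 genes, 11 (52.4%) were not overlapped by a CM peak, against 43.9% of the whole list. They were mostly the low ones: of the 13 in the lower 50% of heights 10 were not in the CM list, and of the 8 in the upper 50% 1 was not. Of the 6 peaks within 1 kb of an annotated start, 5 were not in the CM list, at Abca1, Scarb1, Sqle, Srebf2 and Apoe. All 5 were in the lower 50% of heights, above 15.6% to 41.5% of the list. The other one, at Nr1h3, stood above 78.6% of the list in WT and above 16.1% in CM. Height and place thus cannot be told apart here. The shares over the whole list by height or by place are not given, so these counts have no background to be read against. At Cyp51 the 1 CTCF peak, 2736 bases inside the gene, was listed in both.

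A core of the CTCF motif, searched on both strands as the letters CCA, 2 free bases, AG, 2 free bases and GGC, was in 7 of the 21 peaks (33.3%), against 40.9% of all WT CTCF peaks and 30.9% of BORIS peaks. These 7 sites are shown because they give the letters of the core inside the peaks and because 4 of them share 1 word. Each is read 5′ to 3′ on the strand of the motif from mm9, with the core in capitals.
Abca1, chr4:53123401-53123430: agtggctgaCCACTAGAGGGCaaactttac
Apoe, upstream, chr7:20286601-20286630: acatggttgCCAGCAGGCGGCgccgagggt
Cyp51, chr5:4101977-4102006: ttgccaaggCCAGAAGAGGGCactgtatcc
Scarb1, chr5:125776963-125776992: ctgaggaggCCAGCAGAGGGCgtcagatca
Srebf2 site 1, chr15:82010843-82010872: ccttggaggCCAGAAGAGGGCgtcagattc
Srebf2 site 2, chr15:82012926-82012955: tagtggaggCCAGAAGAGGGCgccagatcc
Srebf2 site 3, chr15:82017994-82018023: atccacaggCCAGAAGAGGGCgtcaggccc
The word CCAGAAGAGGGC, at Cyp51 and at all 3 sites of Srebf2, is the most frequent match of this core in the WT list, in 11.8% of its peaks. The sites of Abca1, Cyp51, Scarb1 and Srebf2 lie in introns. Those of Abca1, Cyp51 and Scarb1 and site 2 of Srebf2 were also in CM peaks within the window, the WT peak that holds the Apoe site was overlapped by a CM peak past the window, and sites 1 and 3 of Srebf2 were not in CM peaks. The peak with BORIS in Abca1 had no match, which says only that these letters are not in it.

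The promoters were read for motifs of the factors that the genes encode or answer to, from 250 bases before to 50 after the start (RefSeq, GRCm38.p6). Entries matched for 5 of the 7 genes, not for Scarb1 and Sqle. A core of the sterol regulatory element, TCACNCCA, was in 2 of these 5 and in 4.36% of 32851 promoters; it is shown for Srebf2 and Apoe because it is the letters that SREBP reads.
Apoe, position -213 from the start: aacgatctTCACCCCAgaagctga
Srebf2, position -162 from the start: acgcaccaTCACCCCAtgagccgc
An E-box, CACGTG, was in that of Abca1 and in 7.15% of all promoters, and the CCAAT box was in those of Cyp51 and Srebf2 and in 37.4%. The LXR element, AGGTCA and again AGGTCA after 4 free bases, in 0.0152% of promoters, and the cyclic AMP element TGACGTCA, in 1.79%, were in none of the 5. A match is a description of letters and not a site of binding, and no match says only that these exact letters are absent. With the LXR letters in so few promoters, their absence from these 5 tells little about LXR.

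Over the 12 whole testis libraries, each of the genes had its own companions, described here by Pearson's r of the log2 level across genes and libraries that share the genotypes, with no test. The genes most like Abca1 were Acsbg1, Scd1 and Flot1 (r = 0.99 each), among which Scd1 encodes stearoyl-CoA desaturase, the enzyme that makes monounsaturated fatty acids. Those most like Apoe were Igfbp6, Jtb and AB124611 (r = 0.95 to 0.96). Sqle went with Stab2, Zfp217 and Gmeb1, Nr1h3 with Fam50b, Msto1 and Ccdc92, Srebf2 with Atf7, Maml1 and Rin3, Scarb1 with Aox3, Hvcn1 and Cox18, and Cyp51 with Mrpl40, 4930545H06Rik and Anapc16, with r between 0.91 and 0.98. Among the 7 genes, Srebf2 and Scarb1 moved together (r = 0.88), as did Sqle and Nr1h3 (r = 0.84), and Sqle and Apoe moved apart (r = -0.80).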

How the data were processed

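The RNA values are counts of reads for each gene symbol as the authors deposited them, not normalized, with whole testis and purified cells in separate tables. According to the study's methods, whole testis RNA was rRNA-depleted and sequenced on Ion Proton, whereas that of purified cells was poly(A)-selected and sequenced on Illumina, so levels in the 2 tables are not directly comparable. The submitters' notes name TopHat2, Bowtie2, Bowtie, STAR, Cufflinks 2.0.0 and DESeq2 with mm9, but the counting tool and its use of strand are not given in the sources used here, so reads of overlapping genes cannot be told apart. For CTCF and BORIS the authors deposited peaks with a height, a signal whose normalization is not stated, and for Pol2 and H3K4me3 peaks with a MACS score of at least 50, which rises with the depth of a library. Some spermatocyte ChIP samples were not analysed here.

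Counts were filtered (filterByExpr, at least 10 counts in a library of median depth and 15 in total), scaled by TMM and tested with edgeR 4.0.16 (quasi-likelihood, robust) between the groups compared, in R 4.3.3, with Benjamini-Hochberg adjustment over all genes tested. A gene was called at an adjusted p under 0.05. The study used DESeq2 at an adjusted p under 0.001 and a fold change over 2, which is an alternative here, as edgeR gives such a p to few genes with 3 libraries. Other alternatives were RLE scaling, DESeq2 1.42.0, no low-count filter, the replicate number as a block, all 4 genotypes in 1 fit, leaving out each library, and for peaks the upper 50% of heights, a window of 10 kb and an overlap of 50%. The scripts were tested on simulated data. P-values measure the spread between these libraries, which in whole testis were separate preparations.

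Same-numbered libraries of different genotypes deviated together in whole testis, where 18 of 18 pairs correlated above 0.1 (0.16 to 0.683, mean 0.401). The pairing comes from the numbers in the titles. Values with the block are given where they change a call.

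The 7 genes and the lists of pathway and marker genes were chosen with earlier results of these data known. Named genes are the 7, Ctcf and Ctcfl, the listed pathway genes called in CM whole testis in the order of adjusted p (up to 8 a list, and up to 3 elsewhere), some uncalled neighbours in the pathway chosen after their values were seen, and for each of the 7 the 3 genes with the highest Pearson correlation of log2(CPM + 0.5) over the 12 whole testis libraries. Rhox5 of the Sertoli cell list was not in the tables, which leaves 11 of its 12 markers. Some genes of the pathway lists are counted but not reported here by name.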

Additional observations from a re-analysis of the deposited data

Results flagged for a closer look

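Cyp51 moved in opposite directions in the purified cells labelled CM, below WT in round spermatids (log2 fold change -0.54) and above WT in spermatocytes (1.07), and the round spermatid markers had medians of -0.98 and 1.63 in the same comparisons. The difference of -1.69 passed its test (edgeR adjusted p = 0.0173), as did 5 of the 7 round spermatid markers, with a median difference of -2.76. In that fit 3.51% of all genes were called, and only 2.17% of the calls were higher, so the direction is not particular to Cyp51. The part of these markers was not tested. The other differences were noticed because every mutant library lay on 1 side of WT in 1 preparation and on the other side in another, and these differences were not tested. Cyp51 in the libraries labelled CTCF HET stood at -0.83 in round spermatids and 0.78 in spermatocytes, a difference of -1.61, beside medians of -0.69 and 1.71 for the round spermatid markers. Sqle in CM stood at -0.64 in whole testis and 0.30 in spermatocytes, a difference of -0.93, and in BORIS KO at -0.42 and 0.07, a difference of -0.49. Srebf2 in CM stood at 0.97 in whole testis and -1.02 in spermatocytes, a difference of 1.99. The spermatocyte libraries labelled CM and CTCF HET are those with few genes of low counts, and as groups neither was lower in Ctcf than WT.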

How the results depend on the processing

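Of the 300 values of single genes under settings other than leaving out a library, 241 kept their direction and their side of the threshold, 32 lost a call, 26 gained one and 1 changed sign, which was Apoe in CM round spermatids with the replicate block (-1.69). Leaving out 1 library in turn gave 275 values, of which 232 kept both, 27 lost a call, 11 gained one and 5 changed sign: Apoe in CM round spermatids ran from -2.83 to 2.65, Scarb1 there from -0.40 to 0.70, and the departure of Apoe from additivity from -0.33 to 0.79. Where this left WT spermatocytes with 1 library, that library is assumed to vary like the others. The cause of these changes was not tested.

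The number of the 7 genes called moved as follows, with purified cells named by their labels. Shares of all genes called are given above for the main fits, and for DESeq2 and the block in some comparisons. They are not given for the other settings, where a change in the 7 cannot be told from a change over all genes. DESeq2 called 5 in CM whole testis (against 2), 1 in BORIS KO whole testis, 1 between CM and BORIS KO, 2 in CTCF HET spermatocytes (against 1), 5 in CM spermatocytes and 2 for the difference between cell types (against 1). The block called 5 in CM and 1 in BORIS KO whole testis. In 1 fit of all 4 genotypes the numbers were 5 in CM whole testis, 1 in CTCF HET and 2 in BORIS KO round spermatids (against 2 and 4), while in spermatocytes 5 were called for CTCF HET, 0 for BORIS KO and 2 for CM (against 1, 4 and 0). The study's thresholds left, with edgeR, 0 in CM whole testis, 0 in CTCF HET and 1 in BORIS KO round spermatids, 0 in both single mutants in spermatocytes and 0 for the difference between cell types. With DESeq2, the study's tool, they left 2 in CM whole testis (Abca1 and Apoe), 0, 1, 0 and 0 in the same single mutants and 2 in CM spermatocytes. In CTCF HET spermatocytes RLE scaling called 2 and no low-count filter 0. Leaving out each library gave 0 to 3 in CM whole testis, 1 to 4 and 3 to 5 in CTCF HET and BORIS KO round spermatids, 0 to 3 for CTCF HET, 2 to 4 for BORIS KO and 0 to 6 for CM in spermatocytes, 0 to 1 between CM and BORIS KO and for the difference between cell types, 3 to 4 between the WT cell types, and 0 in the others. The counts in the 4 pathway lists in CM whole testis ran from 0 to 11, 0 to 5, 0 to 8 and 0 to 13. Of 352 counts in lists under other settings 105 moved by over 1.5 times.

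In purified cells same-numbered libraries did not deviate together (7 of 18 pairs above 0.1 in round spermatids, 2 of 15 in spermatocytes), so the block there is a setting only. Total-count scaling moved the share of higher calls from 42.6% to 58.8% in CTCF HET round spermatids and from 62.9% to 79.9% in CM spermatocytes. With each CTCF and BORIS list limited to its own upper 50% of heights, so that an overlapping CM or BORIS peak had to pass too, there were 8 WT CTCF peaks at the 7 genes, 0 with BORIS and 6 not in CM, 2 CM CTCF peaks and 0 BORIS peaks. With 10 kb at each side there were 2 with BORIS, 16 CM CTCF peaks and 2 BORIS peaks. Apoe and Abca1 in purified cells rest on few counts.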
